A study of Mus musculus with 24 samples.

Results

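Phosphoinositide 3-kinase (PI3K) subunits, brakes on the pathway and FoxO transcription factors were followed through 8 populations of mouse spleen B cells. The 9 genes were taken by name from the pathway, with earlier results of these data known. The list holds the catalytic subunits Pik3cd and Pik3cg, the regulatory subunits Pik3r1, Pik3r5 and Pik3r6, the inhibitor Pik3ip1, the phosphatase Inpp5d, and the factors Foxo1 and Foxo3. They are 9 of 18193 genes with a probe set of their own on the array, and all 9 were among the 11208 genes bright enough to be tested. Each gene is given by its brightest probe set, judged by the mean of 24 arrays. A further 17 probe sets of the same genes, which makes 26 in all, served as a check.

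Class I PI3K phosphorylates a membrane lipid to make PIP3, a docking site for kinases such as AKT and BTK. In B cells the p110δ subunit encoded by Pik3cd, held by p85α from Pik3r1, acts below the antigen receptor, whereas p110γ from Pik3cg works with p101 (Pik3r5) or p84 (Pik3r6) below G protein-coupled receptors. SHIP1, encoded by Inpp5d, removes a phosphate from PIP3, and Pik3ip1 is a transmembrane protein that holds the kinase down. AKT phosphorylates FoxO factors and keeps them out of the nucleus, so that FoxO target genes are expressed where PI3K activity is low.

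RNA was measured on 24 arrays in 8 groups of 3, all from spleens of female C57BL/6 mice aged 8 to 10 weeks, at immunization for the immunized groups. Stimulated follicular B cells were follicular cells kept for 6 h with anti-IgM at 10 µg/ml and anti-CD40 at 2 µg/ml. Plasma cells (day 7), germinal center B cells (days 40 and 7) and memory B cells (days 40 and 7) came from mice given the hapten NP on chicken gamma globulin in alum, and were sorted as hapten-binding. Memory cells were IgG1+ CD38+ PNA-, germinal center cells IgG1+ CD38dull PNA+, and plasma cells IgG1low CD138+ with the lambda light chain. Marginal zone B cells (CD21high CD23low) and follicular B cells (CD21int CD23+) came from mice whose labels name no immunization. Follicular cells were the common control of 7 comparisons, which therefore share 3 arrays. Unstimulated cells kept in culture were not analysed here, so culture and stimulation cannot be told apart.

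Signals are on the log2 scale, from a floor of 2.15 to 16.43, and 36.8% to 43.1% of probe sets lay at the floor of each array. Whether replicates were separate mice is not stated in the labels, so p-values measure only the spread between these samples, which may be technical. Fewer cells of a type and less RNA per cell cannot be told apart in such bulk samples. B cell markers were above background in every group except for Pax5 in plasma cells, where background means each array at or below its own median. T cell markers summed to between 27 and 163 linear signal units on every array, while 9 myeloid markers summed to 38713 to 42848 on plasma cell arrays, 505 to 22445 at day 40 and 735 to 1658 at day 7 in germinal center cells, 2468 to 12187 at day 40 and 3438 to 22306 at day 7 in memory cells, 4877 to 7000 in marginal zone cells, 49 to 163 in stimulated follicular cells and 211 to 453 in follicular cells. The sorts of the immunized groups had depleted Gr1+ cells. In plasma cells 6 of the 9 myeloid markers were above background, while Itgam, Adgre1 and Fcgr1 were not, and the part of these transcripts in the plasma cell results was not tested. Germinal center genes had signal in memory cells of both days. Rgs13 had 10.35, 10.59 and 8.44 at day 40 and 10.82, 5.47 and 6.15 at day 7, and Gcsam had 6.33, 7.46 and 2.71 at day 40. The part of such transcripts in the memory results, and in the differences between days, was not tested. Among memory arrays of day 7, replicate 1 stood apart: Gcsam had 9.21 there, against 2.26 and 2.40 in the other replicates, and the neutrophil gene S100a9 had 13.56, against 2.15 and 7.47. For called results and for Pik3ip1, the value without it is given where leaving it out changed the call or moved the log2 change by over 1.5 times.

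The promoters shown are those of Pik3r5, Pik3ip1 and Pik3cg, whose group means spanned over 4 log2 units, and of Pik3r1, whose probe sets disagreed. RefSeq promoter windows (GRCm38.p6) were found for 8 of the 9 genes, and the 250 bases before the start are printed 5′ to 3′ on the gene's strand. Capitals mark CG dinucleotides and, in Pik3cg, the forkhead core GTAAACA. The windows are Pik3r5, chr11:68431875-68432124, plus strand; Pik3ip1, chr11:3330481-3330730, plus strand; Pik3cg, the downstream of its 2 windows, chr12:32208471-32208720, minus strand; Pik3r1 upstream start, chr13:101768218-101768467, minus strand; and Pik3r1 downstream start, chr13:101692631-101692880, minus strand.
Pik3r5: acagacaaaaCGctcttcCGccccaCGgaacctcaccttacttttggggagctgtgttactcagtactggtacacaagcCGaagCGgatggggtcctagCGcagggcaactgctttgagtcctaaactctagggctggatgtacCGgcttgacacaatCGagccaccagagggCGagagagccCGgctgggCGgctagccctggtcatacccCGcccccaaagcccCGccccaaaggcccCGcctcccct
Pik3ip1: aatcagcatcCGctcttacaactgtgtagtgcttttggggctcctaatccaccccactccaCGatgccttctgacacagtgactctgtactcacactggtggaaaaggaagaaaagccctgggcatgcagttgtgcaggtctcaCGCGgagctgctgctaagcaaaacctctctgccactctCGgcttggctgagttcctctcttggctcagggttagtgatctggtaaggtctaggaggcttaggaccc
Pik3cg: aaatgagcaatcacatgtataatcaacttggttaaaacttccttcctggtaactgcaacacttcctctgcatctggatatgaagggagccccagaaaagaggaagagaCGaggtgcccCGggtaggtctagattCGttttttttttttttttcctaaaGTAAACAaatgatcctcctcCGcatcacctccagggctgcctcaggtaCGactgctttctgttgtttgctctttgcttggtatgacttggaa
Pik3r1 upstream start: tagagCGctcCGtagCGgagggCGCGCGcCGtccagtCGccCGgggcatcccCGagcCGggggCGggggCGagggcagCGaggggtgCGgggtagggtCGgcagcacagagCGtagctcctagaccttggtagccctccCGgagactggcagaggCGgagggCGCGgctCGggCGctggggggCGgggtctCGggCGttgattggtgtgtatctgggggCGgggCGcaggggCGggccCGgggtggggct
Pik3r1 downstream start: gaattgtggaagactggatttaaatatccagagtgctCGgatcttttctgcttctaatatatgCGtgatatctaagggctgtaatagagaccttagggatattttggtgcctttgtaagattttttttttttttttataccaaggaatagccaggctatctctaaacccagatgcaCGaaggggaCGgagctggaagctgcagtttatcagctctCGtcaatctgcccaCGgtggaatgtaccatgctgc

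The Pik3r1 starts differed in make-up: the upstream window held 30 CG dinucleotides and the downstream one 6, which is the median over 32851 windows (quartiles 2 and 16). Pik3r5 had 14, and Pik3ip1 and the printed Pik3cg window had 5 each. The core GTAAACA, searched on both strands as GTAAACA and TGTTTAC, was present in 3.17% of all windows and in 1 of the 12 windows found for 8 of the genes, that of Pik3cg, 92 bases before the start. The E-box CACGTG was in 6.02% of all windows and in none of the 12. A match is a description of letters and not a site. Pik3r5 and Pik3r6 are neighbours on chromosome 11, with 0 annotated genes between them.

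**Figure D1:**
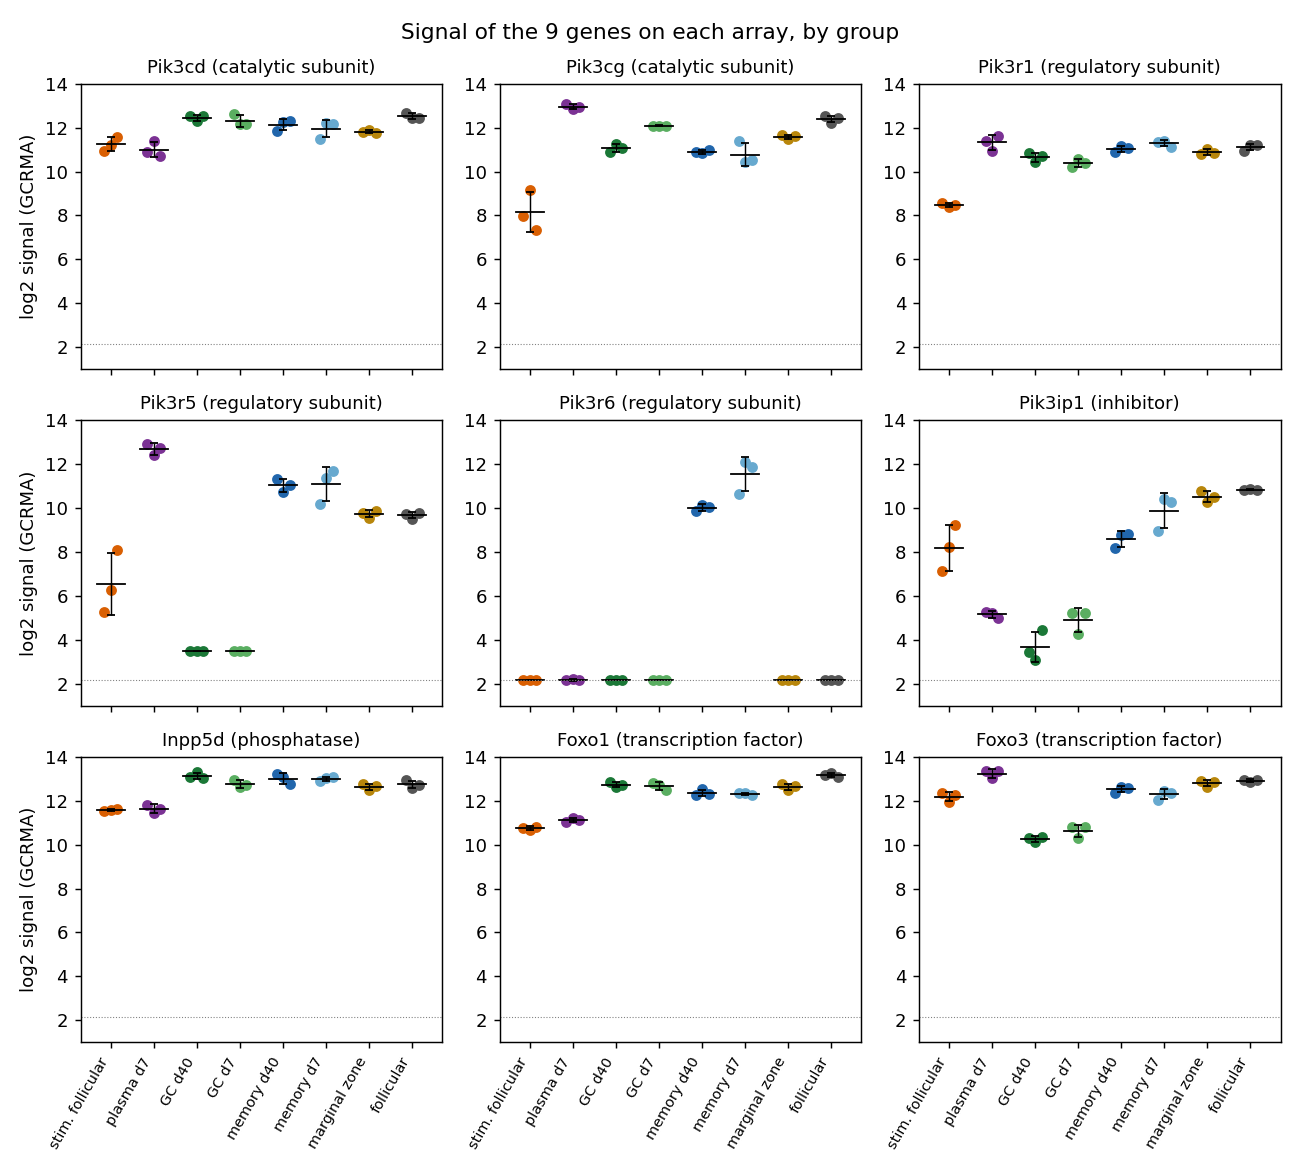
Log2 signal (y axis) of the 9 genes on every array, by group (x axis); points are arrays, bars the mean and whiskers ± SD (n = 3), and the dotted line the floor of 2.15. Pik3r6 left the floor only in the memory groups, except for 2.24 on 1 plasma cell array, and Pik3r5 lay at 3.50 on all germinal center arrays.

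A gene counted as changed (called) with an adjusted p below 0.05 together with a shift of 1 or more on the log2 scale. Against follicular cells, 7 of the 9 fell and 0 rose in stimulated follicular cells, where 22.5% of all tested genes were called lower and 16.9% higher. In plasma cells 1 rose and 4 fell (20.3% of all genes rose and 22.4% fell). At day 40 of the germinal center 4 fell and 0 rose (15.7% of all genes fell and 16.8% rose), and at day 7 there were 3 falls and 0 rises (16.6% fell and 14.4% rose). Among memory cells 2 rose and 2 fell at day 40 (7.23% of all genes rose and 6.55% fell), and 2 rose and 1 fell at day 7 (9.18% rose and 9.23% fell). In marginal zone cells 0 were called by limma (7.21% of all genes rose and 3.83% fell), and 3 had changes at an unadjusted p under 0.05. The median change of the 9 genes was -2.43 in stimulated cells, against -0.02 over all genes, and between -0.57 and 0.03 in the other 6 comparisons.

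**Figure D2:**
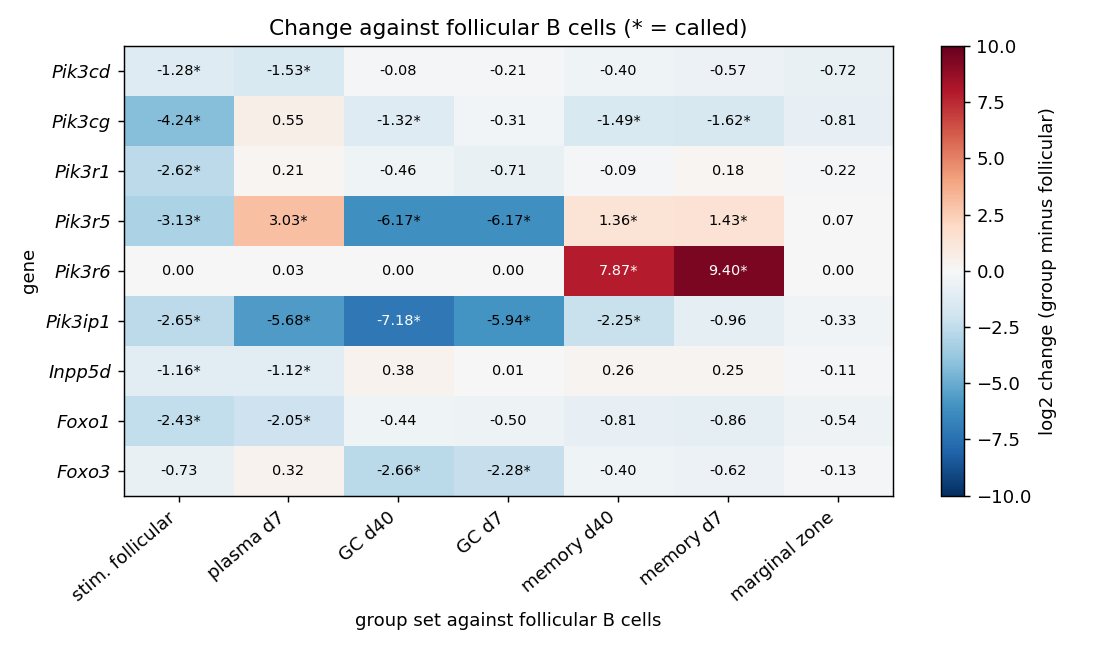
Log2 change (colour and number) of each gene (rows) in 7 groups (columns) against follicular cells, with an asterisk where called. Stimulated follicular cells were lower for 7 genes, and the values of Pik3r6 in memory cells are set against follicular arrays at the floor, with lower bounds of 7.56 at day 40 and 9.08 at day 7.

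Of the catalytic subunits, Pik3cd varied little and Pik3cg changed most on stimulation. Pik3cg, the p110γ subunit, had 7.98, 9.14 and 7.34 in stimulated follicular cells, against 12.51, 12.22 and 12.44 in follicular cells. Its groups did not overlap, and the change was -4.24 ± 0.31 (SE, adjusted p = 1.09e-09, limma), an 18.9-fold lower level. The other Pik3cg probe set was called lower too, with 2.33, 3.18 and 2.28 in stimulated cells, of which 2 lay at background, against 10.51, 10.25 and 10.03 in follicular cells.

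Plasma cells had 13.07, 12.83 and 12.93 of Pik3cg, germinal center cells 10.88, 11.26 and 11.08 at day 40 and 12.09, 12.05 and 12.09 at day 7, memory cells 10.89, 10.82 and 10.99 at day 40 and 11.39, 10.41 and 10.52 at day 7, and marginal zone cells 11.66, 11.47 and 11.60. With the brighter probe set every one of these arrays, except those of plasma cells, lay below the 3 follicular arrays. The other probe set put germinal center cells of day 7 above follicular cells, at 10.73, 10.71 and 10.90, against 10.51, 10.25 and 10.03. Both memory groups fell, with changes of -1.49 at day 40 (adjusted p = 0.00136) and -1.62 at day 7 (adjusted p = 4.63e-04, limma), or -1.93 at day 7 without replicate 1. With the other probe set these changes were -0.95 and -0.98, short of 1.

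Germinal center cells at day 40 fell by 1.32 in Pik3cg against follicular cells (adjusted p = 0.00135), but by 0.49 with the other probe set (adjusted p = 0.171). The change at day 7 was -0.31 ± 0.31 (adjusted p = 0.442). Day 40 was 2-fold lower than day 7 (adjusted p = 0.0481, limma), the 1 called gene of the 9 in that comparison, in which 2.36% of all genes fell and 3.58% rose. Leaving out any 1 of 20 of the 24 arrays ended this call (adjusted p between 0.054 and 0.168).

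In plasma cells Pik3cg did not pass the test against follicular cells with the brighter probe set (0.55 ± 0.31, adjusted p = 0.13), while the other gave 1.79 (adjusted p = 2.51e-05). Against memory cells of day 7 plasma cells were higher by 2.17 ± 0.31 (adjusted p = 6.94e-06). Myeloid markers were high on the same 3 plasma arrays, S100a9 at 14.23, 14.31 and 14.07, as given above for the whole list. Replicate 1 of the germinal center at day 40 had S100a9 at 13.84 and Pik3cg at 10.88, the lowest of its group with the brighter probe set. With the other probe set it had 9.97, the highest of its group, against 9.41 and 9.93. The part of myeloid cells in the Pik3cg signal was not tested.

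Pik3cd, the p110δ subunit, had 10.95, 11.20 and 11.58 in stimulated follicular cells and 10.91, 11.38 and 10.69 in plasma cells, against 12.68, 12.44 and 12.45 in follicular cells. Both groups lay wholly below follicular cells, by 1.28 ± 0.22 (adjusted p = 5.37e-05) and 1.53 ± 0.22 (adjusted p = 5.74e-06). The remaining groups averaged between 11.80 (marginal zone) and 12.44 (germinal center day 40), each overlapping its neighbour in the order of means. Plasma cells also lay 1.32 below germinal center cells of day 7 (-1.32 ± 0.22, adjusted p = 3.84e-05). Of 3 other tested Pik3cd probe sets none called the stimulated or the plasma change against follicular cells, and the dimmest of them, with a highest value of 4.50, gave 0.15 for plasma cells.

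The regulatory subunits went separate ways: Pik3r1, by its brightest probe set, was called lower on stimulation and in no other group against follicular cells, Pik3r5 was near background in the germinal center, and Pik3r6 was detected in memory cells. Pik3r1, the p85α gene, had 8.57, 8.40 and 8.49 in stimulated follicular cells, against 10.94, 11.20 and 11.19 in follicular cells, with no overlap. The change was -2.62 ± 0.16 (adjusted p = 1.03e-10), a 6.16-fold lower level, and it was also called with each of the other 3 probe sets. All other group means of this probe set lay between 10.40 and 11.32, and none of these groups was called against follicular cells.

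The probe sets of Pik3r1 disagreed on 3 other groups against follicular cells, most widely on plasma cells. The brightest had 11.40, 10.95 and 11.62 in plasma cells, a change of 0.21 ± 0.16 against follicular cells (adjusted p = 0.27). The probe set with an overall mean of 9.01 gave 2.20 ± 0.31 (adjusted p = 6.45e-06), and the dimmest, with an overall mean of 5.71, gave 3.29 ± 0.36 (adjusted p = 2.84e-07). The one with an overall mean of 9.01 also called memory cells of day 7 higher (1.35, adjusted p = 0.00282), and the one with 9.97 called germinal center cells of day 7 lower (-1.30, adjusted p = 0.0205). Which transcripts, and which of the starts above, each probe set reads was not analysed here.

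**Figure D3:**
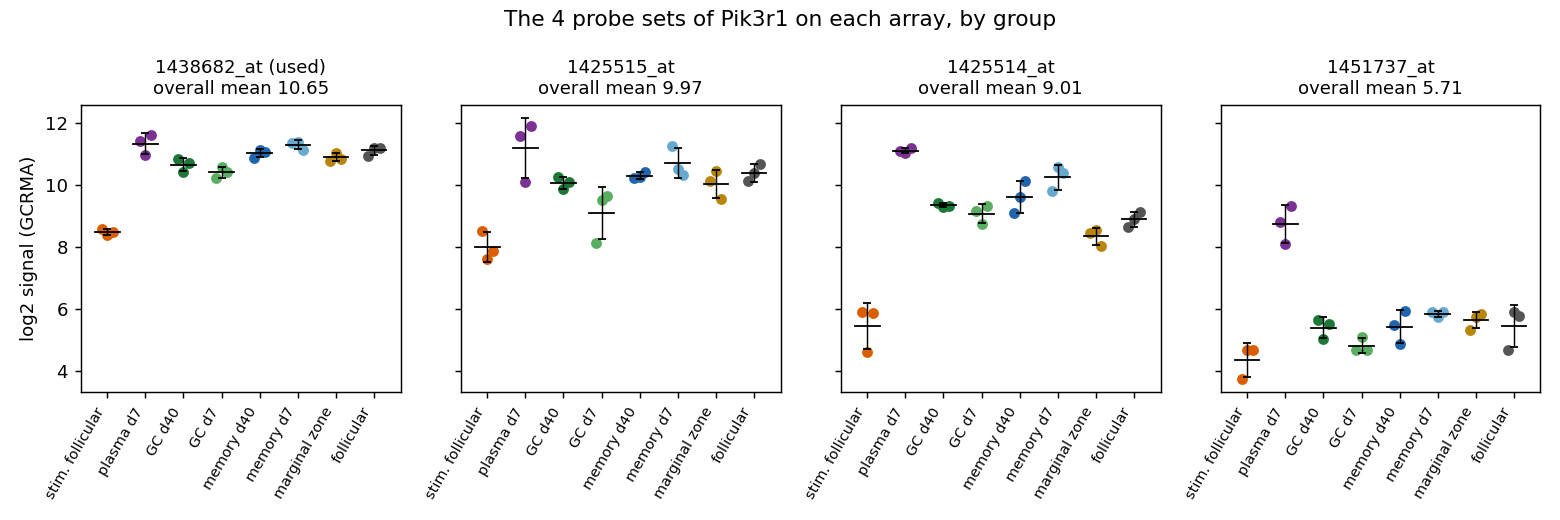
Log2 signal (y axis) of the 4 Pik3r1 probe sets (panels) on every array by group (x axis), with the mean and ± SD (n = 3). All 4 had their lowest mean in stimulated follicular cells, and those with overall means of 5.71 and 9.01, unlike the one used, were called higher in plasma than in follicular cells, by 3.29 and 2.20.

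Pik3r5, the p101 partner of p110γ, spanned 9.19 log2 units between group means. It had 12.93, 12.41 and 12.74 in plasma cells, 3.50 on each of the 6 germinal center arrays of days 40 and 7, 11.31, 10.72 and 11.05 in memory cells at day 40, and 10.20, 11.39 and 11.69 at day 7. Stimulated follicular cells had 5.29, 6.26 and 8.07, marginal zone cells 9.79, 9.56 and 9.86, and follicular cells 9.73, 9.51 and 9.76. Plasma cells were thus highest with no overlap, memory cells next, naive cells below them, and germinal center cells lowest, at the lowest value of this probe set.

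Since 3.50 is the probe set's lowest value, germinal center folds are lower bounds. Pik3r5 was at least 71.8-fold lower in germinal center cells of each day than in follicular cells (adjusted p = 2.41e-09 at day 40 and 3.66e-09 at day 7, limma). It was at least 184-fold lower than in memory cells at day 40 and at least 193-fold lower at day 7. Plasma cells exceeded germinal center cells of day 7 at least 585-fold (adjusted p = 4.60e-12).

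Pik3r5 rose by 3.03 ± 0.46 in plasma cells (adjusted p = 1.34e-05) and fell by 3.13 in stimulated cells (adjusted p = 1.12e-05), both against follicular cells. The germinal center array of day 40 with S100a9 at 13.84 had Pik3r5 at 3.50, like the 2 arrays with S100a9 at the floor. The part of myeloid or other cells in the Pik3r5 signal was not tested. Memory cells lay wholly above follicular cells, by 1.36 ± 0.46 at day 40 (adjusted p = 0.0388) and 1.43 ± 0.46 at day 7 (adjusted p = 0.0226). The day 40 call was lost on leaving out any 1 of its own 3 or of the 3 follicular arrays (adjusted p up to 0.121). That at day 7 was lost without follicular replicate 2, memory replicate 2 or memory replicate 3 (adjusted p up to 0.106), whereas without memory replicate 1 it was 1.87 (adjusted p = 0.00559). Pik3r5 has a single probe set here, so that no second one checks it.

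Pik3r6, the p84 partner of p110γ, had 9.88, 10.16 and 10.03 in memory cells at day 40 and 10.66, 12.11 and 11.87 at day 7. It was at the floor of 2.15 on the 15 arrays of stimulated follicular, germinal center, marginal zone and follicular cells, and at 2.15, 2.24 and 2.15 in plasma cells. Memory cells therefore stood apart from every other group, with no overlap. Against follicular cells, taken at each array's median as background, Pik3r6 was at least 189-fold higher at day 40 (adjusted p = 6.89e-15, limma). At day 7 it was at least 542-fold higher (adjusted p = 5.84e-16, limma). Being at background in every other group, Pik3r6 was bright enough to be tested only through its memory arrays. These p-values are therefore not independent of that selection, and the array values above carry the result. The second probe set had 8.29, 8.83 and 8.72 at day 40 and 9.44, 10.90 and 10.69 at day 7, and 2.15 on every array outside the memory groups.

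S100a9 and Pik3r6 ordered the memory arrays alike at day 40 and not at day 7. At day 40 S100a9 had 6.78, 12.51 and 11.31, with replicate 1 lowest and replicate 2 highest for both genes. At day 7 S100a9 was at the floor in replicate 2, which had the highest Pik3r6, 12.11. S100a9 was at 13.56 in replicate 1, which had the lowest Pik3r6, 10.66. The myeloid markers Lyz2, S100a8 and Cd14 were also highest in replicate 1 of day 7. Itgam (2.24, 4.19 and 3.39), Adgre1 (5.22, 5.81 and 5.95) and Mpeg1 were instead lowest in that replicate, like Pik3r6. Csf1r and Fcgr1 were at background in this group. Plasma cell arrays, with S100a9 above 14, had Pik3r6 at background. The part of myeloid or other cells in the Pik3r6 signal was not tested.

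Memory cells of day 40 lay below those of day 7 in Pik3r6, with no overlap, by 1.52 ± 0.23 (adjusted p = 2.55e-04). It was the 1 called gene of the 9, where 2.28% of all genes fell and 2.74% rose. Without replicate 1 of day 7 the fall was 1.97 (adjusted p = 8.80e-10). The spread behind these p-values is shared with groups at the floor, whose SD was 0.00, against 0.14 in memory cells at day 40 and 0.78 at day 7. They therefore do not measure the spread between memory samples alone. With only the memory groups in the fit the change was -1.52 ± 0.42 (adjusted p = 0.131, limma).

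The brakes differed: Pik3ip1 changed widely and Inpp5d narrowly. Pik3ip1, the transmembrane inhibitor, had 5.26, 5.23 and 4.98 in plasma cells, 3.46, 3.10 and 4.43 at day 40 and 5.20, 4.26 and 5.23 at day 7 in germinal center cells, against 10.82, 10.88 and 10.82 in follicular cells. Stimulated follicular cells had 7.13, 8.21 and 9.23, memory cells 8.19, 8.76 and 8.82 at day 40 and 8.97, 10.39 and 10.29 at day 7, and marginal zone cells 10.77, 10.26 and 10.51. With this brighter probe set follicular cells were above every other array, and the plasma and germinal center arrays below all others.

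Against follicular cells Pik3ip1 fell by 5.68 in plasma cells (51.4-fold, adjusted p = 2.78e-09), by 7.18 in germinal center cells at day 40 (145-fold, adjusted p = 2.26e-10) and by 5.94 at day 7 (61.5-fold, adjusted p = 4.77e-09). Stimulated cells fell by 2.65 (adjusted p = 6.00e-05) and memory cells of day 40 by 2.25 (adjusted p = 0.00113). In memory cells of day 7 the change was -0.96 ± 0.45 (adjusted p = 0.118), or -0.50 without replicate 1 (adjusted p = 0.49). A second probe set also called the stimulated, plasma and germinal center falls, but not that of memory cells at day 40 (-1.65, adjusted p = 0.254). Its germinal center falls were smaller, with means of 5.09 at day 40 and 6.47 at day 7, against 9.27 in follicular cells. Both germinal center groups overlapped stimulated follicular cells there (mean 5.91).

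Day 40 against day 7 of memory gave -1.29 ± 0.45 for Pik3ip1 (adjusted p = 0.0806), with no overlap of the groups. Without memory day 7 replicate 1 it was -1.75 (adjusted p = 0.0217), and leaving out stimulated follicular replicate 1 or 3 also brought it past the threshold (adjusted p = 0.0424 and 0.0401).

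Inpp5d, which encodes SHIP1, had 11.53, 11.59 and 11.62 in stimulated follicular cells and 11.82, 11.42 and 11.64 in plasma cells, against 12.92, 12.59 and 12.72 in follicular cells. Both lay wholly below, by 1.16 ± 0.14 (adjusted p = 9.58e-07) and 1.12 ± 0.14 (adjusted p = 1.28e-06). The other groups averaged between 12.64 and 13.13. A second probe set gave -0.81 for plasma cells, under the limit of 1, and 1.05 for germinal center cells at day 40 (adjusted p = 7.04e-04), where the probe set used gave 0.38.

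The called falls of the FoxO factors against follicular cells lay in different populations. Foxo1, the main FoxO factor of B cells, had 10.76, 10.65 and 10.82 in stimulated follicular cells and 11.03, 11.19 and 11.13 in plasma cells, against 13.17, 13.26 and 13.08 in follicular cells. With no overlap, the changes were -2.43 ± 0.11 (5.38-fold lower, adjusted p = 2.27e-12) and -2.05 ± 0.11 (4.15-fold lower, adjusted p = 1.36e-11). In the other groups it averaged 12.31 to 12.73. Those groups lay 0.44 to 0.86 below follicular cells, under the limit of 1, with adjusted p between 1.02e-05 and 0.00273.

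Foxo3 had 13.34, 13.01 and 13.34 in plasma cells, 10.29, 10.10 and 10.36 at day 40 and 10.78, 10.31 and 10.80 at day 7 in germinal center cells, against 12.96, 12.83 and 12.95 in follicular cells. Stimulated follicular, memory and marginal zone cells averaged between 12.18 and 12.79. Of these, stimulated cells gave -0.73 ± 0.15 (adjusted p = 5.23e-04) and memory cells of day 7 -0.62 ± 0.15 (adjusted p = 0.00421, limma), under the limit of 1. All 6 germinal center arrays lay below the other 18. Against follicular cells Foxo3 fell by 2.66 at day 40 (6.33-fold, adjusted p = 6.80e-11) and by 2.28 at day 7 (4.87-fold, adjusted p = 1.04e-09, limma). The plasma change was 0.32 ± 0.15 (adjusted p = 0.0856).

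Germinal center cells were then set against memory cells of the same day. At day 40, 4 of the 9 fell and 0 rose (12.7% of all genes fell and 15.3% rose), and at day 7 there were 4 falls and 1 rise (12.1% fell and 11.6% rose). Pik3r5, Pik3r6, Pik3ip1 and Foxo3 fell at both days. Pik3r6 was at least 195-fold lower at day 40 and at least 555-fold at day 7, with germinal center cells at background. Pik3ip1 fell by 4.93 ± 0.45 at day 40 (adjusted p = 6.82e-08) and 4.99 ± 0.45 at day 7 (adjusted p = 1.01e-07), and Foxo3 by 2.27 ± 0.15 and 1.66 ± 0.15. The second Pik3ip1 probe set gave -2.53 at day 40 (adjusted p = 0.0397) and at day 7 -1.64, which was not called (adjusted p = 0.21). Pik3r1 gave -0.88 ± 0.16 at day 7, while its other 3 probe sets gave -1.17, -1.61 and -1.03 and were called. Pik3cg rose at day 7, by 1.30 ± 0.31 (adjusted p = 0.00216), and differed by 0.17 ± 0.31 at day 40 (adjusted p = 0.724).

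The difference between the days in this change was tested as an interaction. It was called for 1 of the 9, as positive (2.92% of all genes were positive and 2.03% negative), Pik3r6, at 1.52 ± 0.32 (adjusted p = 0.00589). With germinal center cells at the floor on both days, it equals the fall between the memory groups, and with only the 4 groups in the fit its adjusted p was 0.0836. For Pik3cg it was -1.13 ± 0.43 (adjusted p = 0.148). Without memory day 7 replicate 1 that became -1.44 (adjusted p = 0.0492), and without stimulated follicular replicate 2 the adjusted p was 0.0271.

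**Figure D4:**
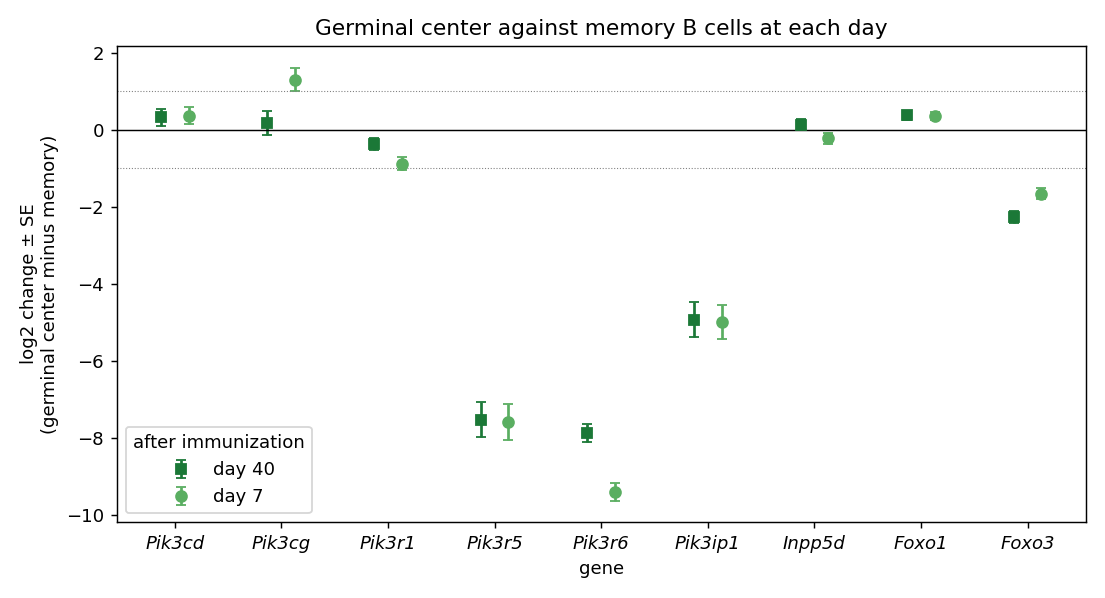
Log2 change ± SE (y axis) of germinal center minus memory cells for the 9 genes (x axis) at day 40 (squares) and day 7 (circles), with dotted lines at 1 and -1. Pik3r5, Pik3r6, Pik3ip1 and Foxo3 lie below -1 at both days, and Pik3cg above 1 at day 7 alone (1.30, against 0.17 at day 40).

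Plasma cells of day 7 differed from memory cells of the same day in 6 of the 9, with 2 higher and 4 lower (17.9% of all genes were higher and 18.7% lower). Pik3r5 was higher by 1.60 ± 0.46 (adjusted p = 0.00634), or by 1.15 without memory replicate 1 (adjusted p = 0.0473), and Pik3cg by 2.17. Pik3r6 was at least 510-fold lower, Pik3ip1 fell by 4.73 ± 0.45 (adjusted p = 4.57e-08), and Inpp5d by 1.36 ± 0.14, while Foxo1 was 2.29-fold lower (adjusted p = 3.58e-08). The Foxo1 call was lost with both other tested probe sets (-0.91, adjusted p = 0.0546, and -0.93, adjusted p = 9.31e-04) and with the mean of the probe sets (-0.75). Pik3cd was at -0.96 ± 0.22, and was called at -1.19 without memory replicate 1 (adjusted p = 1.26e-04) and at -1.15 without plasma replicate 2. Foxo3, at 0.94 ± 0.15, passed 1 without memory replicate 2 (1.03) or plasma replicate 2 (1.05).

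Against germinal center cells of day 7, plasma cells had 2 higher and 3 lower (18.1% of all genes were higher and 20.1% lower). Foxo3 was higher by 2.60 ± 0.15 (6.06-fold, adjusted p = 5.57e-11) beside Pik3r5. Pik3cd, Inpp5d (-1.13 ± 0.14) and Foxo1 (-1.55 ± 0.11, adjusted p = 9.30e-10) were lower. None of the 3 other tested Pik3cd probe sets called this fall (0.24, -0.70 and 0.15), nor did their mean with the one used (-0.27, adjusted p = 0.144). Pik3ip1 gave 0.26 ± 0.45, with a 95% interval of -0.69 to 1.21. Pik3r1 gave 0.92 ± 0.16 with the brightest probe set, which passed 1 without germinal center replicate 2 (1.01) or plasma replicate 2 (1.11). Its other 3 probe sets were called higher (2.02, 2.10 and 3.92), as was the mean of all 4 (2.24, adjusted p = 6.36e-08).

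In marginal zone against follicular cells the changes of the 9 ranged from -0.81 ± 0.31 for Pik3cg (95% interval -1.46 to -0.17) to 0.07 ± 0.46 for Pik3r5 (-0.90 to 1.04). Foxo1 was 0.54 lower with adjusted p = 0.00173 and Pik3cd 0.72 lower with adjusted p = 0.0262, both below the minimum size. The other Pik3cg probe set was called, at -1.38 (adjusted p = 0.00216).

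Of 90 other genes of the pathway, in 8 lists, 75 were tested. Against follicular cells 5 rose and 35 fell in stimulated cells, where 16.9% of all tested genes rose and 22.5% fell. In plasma cells 10 rose and 23 fell (20.3% and 22.4% of all genes). In germinal center cells 7 rose and 20 fell at day 40 (16.8% and 15.7%), and 6 rose and 16 fell at day 7 (14.4% and 16.6%). In memory cells 4 rose and 3 fell at day 40 (7.23% and 6.55%), and 8 rose and 3 fell at day 7 (9.18% and 9.23%). In marginal zone cells 4 rose and 10 fell (7.21% and 3.83%). The median change of the 75 was -0.90 in stimulated cells, against -0.02 over all genes.

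On stimulation 9 of 13 genes whose products bind PIP3 fell and 0 rose, with a median of -1.88, where 22.5% of all genes fell. They included the GTPase-activating protein gene Rasa3 (-7.76 ± 0.29) and the adaptor gene Dapp1 (-4.79 ± 0.37). Among 8 adaptors and recruiters 4 fell, with the kinase gene Syk at -4.02 ± 0.15. Of 20 genes known as FoxO targets 13 fell and 3 rose, among them the ubiquitin ligase gene Fbxo32 (-5.63 ± 0.48) and the migration regulator Klf2 (-5.41 ± 0.57) as falls, and the cell cycle inhibitor Cdkn1a (7.83 ± 0.73) as a rise. Foxo4, the third FoxO factor tested, fell by 1.79. Of 4 class I PI3K subunit genes outside the 9, 0 rose and 0 fell, with Pik3cb at the floor of 2.15 in both groups.

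In germinal center cells 4 of the 13 PIP3-binding genes fell at each day, where 15.7% of all genes fell at day 40 and 16.6% at day 7. Vav3, a guanine nucleotide exchange factor, averaged 2.40 ± 0.24 at day 40 and 3.60 ± 0.82 at day 7, against 9.23 ± 0.30 in follicular cells (SD, n = 3). FoxO targets fell for 9 of 20 at day 40 and 8 of 20 at day 7, with 2 rises at each, and the exit receptor S1pr1 fell by 6.80 and 4.43. Foxo4 averaged 9.59 at day 40 and 9.97 at day 7, against 11.47 in follicular cells, and fell at both. Of 16 tested genes of the AKT and mTOR kinase list, 2 rose, 1 fell and 13 were not called at each day. Over all genes 16.8% rose at day 40 and 14.4% at day 7. Akt1, a kinase that phosphorylates FoxO factors, rose by 1.58 ± 0.29 at day 40 (adjusted p = 1.68e-04) and 2.00 ± 0.29 at day 7 (adjusted p = 1.53e-05). The falls were Akt2 at day 40 (-1.17 ± 0.40, adjusted p = 0.0197) and Sgk1 at day 7 (-1.84 ± 0.53, adjusted p = 0.00739, limma).

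Another catalytic subunit, Pik3cb (p110β), averaged 6.04 ± 0.56 in germinal center cells of day 40 and 2.30 ± 0.15 at day 7, against 2.15 in follicular cells (SD, n = 3). Day 40 exceeded day 7 by 3.74 ± 0.34 (adjusted p = 3.07e-07). The regulatory subunit gene Pik3r3 rose by 3.37 ± 0.37 in plasma cells and by 3.65 ± 0.37 in marginal zone cells.

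In plasma cells 6 of 8 adaptors and recruiters fell against follicular cells and 0 rose, where 22.4% of all genes fell. They included the complement receptor gene Cr2 (-10.45 ± 0.29) and Pik3ap1, the BCAP adaptor (-5.40 ± 0.30, adjusted p = 1.49e-11). FoxO targets were split, with 5 higher and 7 lower of 20 (20.3% of all genes were higher): Cdkn1a rose by 6.40, and the inhibitory receptor gene Btla fell by 8.70. In memory cells 3 of 20 FoxO targets rose and 1 fell at day 7 (9.18% of all genes rose and 9.23% fell), with a median of -0.29. At day 40, 2 rose and 2 fell (7.23% and 6.55%), with a median of -0.12. Of the rises, Irs2, an insulin receptor substrate gene, gave 3.68 ± 0.46 at day 7 and 4.59 ± 0.46 at day 40.

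**Figure D5:**
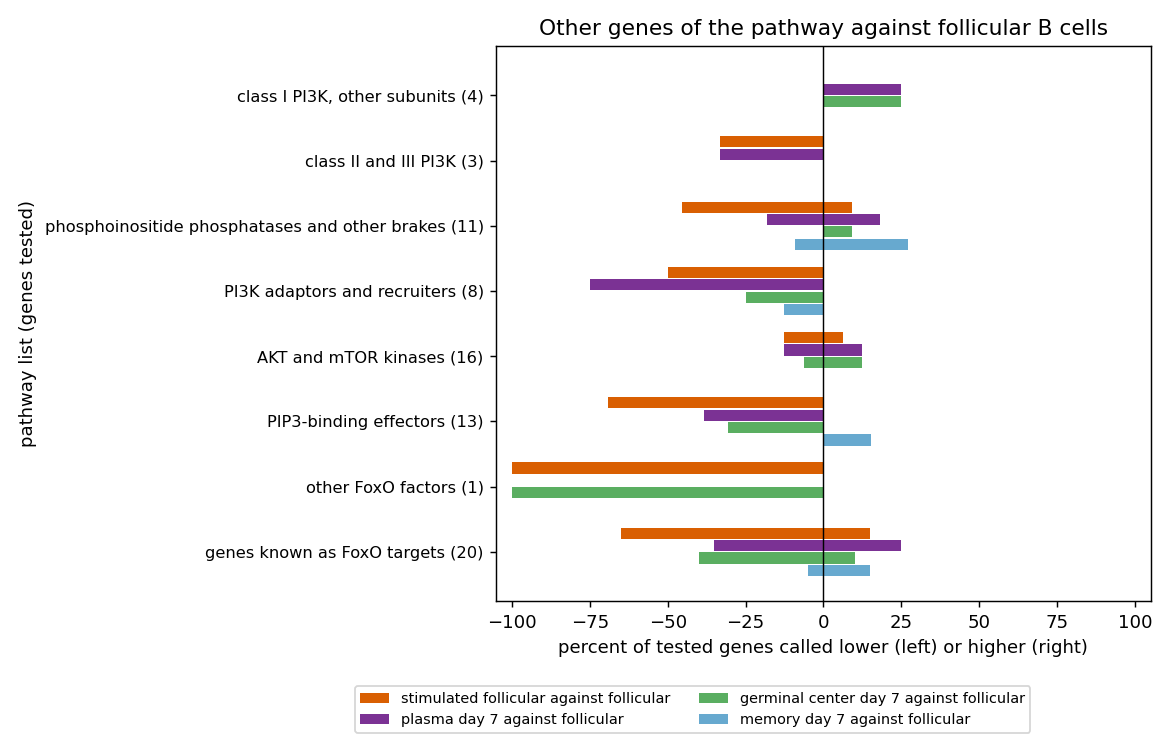
Percent of the tested genes of each pathway list (y axis, number tested in brackets) called lower (bars left of 0) or higher (right of 0) in 4 groups against follicular cells. In stimulated cells 9 of 13 PIP3-binding genes and 13 of 20 FoxO targets were lower.

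Genes of like pattern were sought for the 7 members whose group means span at least 2 log2 units, among 5615 genes that do so too, by Pearson r over the 24 arrays. The arrays share groups and libraries, so these values describe and do not test. Nearest to Pik3r6 were Sh2d6 (r = 0.987), Zbtb32 (0.951) and Trabd2b (0.943). For Pik3r5 they were Acadsb (0.957), Tmem154 (0.951) and Calcoco1 (0.950), and for Pik3cg Antxr2 (0.928), Smpd1 (0.917) and Milr1 (0.915). Pik3r1 was most like Rasa3 (0.960), Pld4 (0.958) and Rgs14 (0.957), and Pik3ip1 most like Ppm1l (0.953), Ubash3b (0.950) and Nrros (0.943). Foxo1 had Rps6ka5 (0.951), Mical1 (0.950) and Ago4 (0.949), and Foxo3 had Vkorc1 (0.975), Tmcc3 (0.965) and Neat1 (0.956). Among the 9 themselves, Pik3r5 and Foxo3 had r = 0.90, Pik3cd and Foxo1 0.86, and Inpp5d and Foxo1 0.85, whereas Foxo1 and Foxo3 had -0.28.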

How the data were processed

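The deposited values were the authors' log2 signals per probe set of Affymetrix mouse genome arrays, made with GCRMA per the submitters' processing notes. No further normalization was applied, and no version is stated. Of 45101 probe sets, 34945 had 1 gene symbol in the platform annotation, 932 several and 9160 none beside 64 controls. For 18193 genes the brightest probe set was kept, and 11208 genes above the array's median on at least 3 arrays were tested. Changes came from 1 limma model (version 3.58.1, R 4.3.3) with a mean for each of 8 groups over 24 arrays and the default prior, with Benjamini-Hochberg adjustment within each of 13 comparisons and an interaction. Labels give no batch. The number of arrays limits the precision, and values near the floor of 2.15 have no order.

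Named are the 9 genes, some of the up to 4 called genes with the largest changes per pathway list and comparison, and the 3 genes most like each member. The members and lists were chosen with earlier results of these data known. Alternatives were other filters, normalizations, offsets, probe sets, priors, weights and blocks, only the compared groups, no minimum change, and each array left out. Single other probe sets were added after seeing the data. The fit was tested on simulated data. Figures used Python 3.11.15 and matplotlib 3.10.9.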

Additional observations from a re-analysis of the deposited data

Results flagged for a closer look

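The interaction of day with germinal center against memory was called for Pik3r6, at 1.52 ± 0.32 (adjusted p = 0.00589, limma). Memory means were 10.02 at day 40 and 11.55 at day 7, with germinal center cells at the floor on both days. The interaction therefore restates the fall between the memory groups. It cannot show whether the change from memory to germinal center cells differed between the days, because values at the floor have no order. The interaction lost the threshold with only the 4 groups in the fit (adjusted p = 0.0836). Leaving out the array with the fewest floor values of each group gave 1.31 (adjusted p = 0.162).

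A probe set annotated to Foxo3 and to another gene, and therefore kept out of the tests, carried a signal in plasma cells. It had 7.44, 7.79 and 8.03 there, a mean of 7.75, against 4.21, 4.64 and 4.64 in follicular cells, and its other group means lay between 4.20 and 5.21. Which of the annotated genes it reads was not tested.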

How the results depend on the processing

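Over 13 other settings, 1567 results kept their direction and side of the threshold, 36 gained it and 21 lost it. Over the arrays left out in turn these counts were 2984, 11 and 29. With single other probe sets they were 145, 18 and 14, and 5 reversed. The number of the 9 genes called moved as follows. With no minimum change it was 2 for marginal zone, 5 for memory day 7, 5 for germinal center day 7 and 7 for germinal center day 40, each against follicular cells. Averaging the probe sets of each gene gave 1 for marginal zone against follicular cells. For memory day 40 against day 7 it was 2 with quantile normalization, an offset of 16 or array weights, and 0 with only the compared groups. For germinal center day 40 against day 7 it was 0 with the replicate block, no filter, an offset of 16, equal array medians or quantile normalization. The interaction gave 2 with array weights and 0 with only the compared groups or without the arrays with the fewest floor values.

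Leaving out 1 array gave 7 to 7 called genes in stimulated against follicular cells, 5 to 5 in plasma cells, 4 to 4 and 3 to 3 in germinal center cells of day 40 and day 7, 3 to 4 and 2 to 3 in memory cells of day 40 and day 7, and 0 to 0 in marginal zone cells. Germinal center against memory gave 4 to 4 at day 40 and 5 to 5 at day 7, memory day 40 against day 7 gave 1 to 2, germinal center day 40 against day 7 gave 0 to 1, plasma against memory 6 to 8, plasma against germinal center 5 to 6, and the interaction 1 to 2. Other Pik3cd probe sets reversed 5 changes: the dimmest tested one gave 1.41 for germinal center day 40 and 0.15 for plasma against follicular cells, 0.24 for plasma against germinal center cells and 2.11 for the interaction, and the one with an overall mean of 7.42 gave 0.15 for plasma against germinal center cells. The cause was not tested.

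The labels do not say whether same-numbered replicates share mice. In none of 13 comparisons did all 3 same-numbered pairs correlate above 0.1, which cannot exclude pairing. Nearest to it was plasma against germinal center cells of day 7, at 0.214, 0.329 and 0.067. The replicate block changed 1 call of the 9 genes, Pik3cg in germinal center day 40 against day 7 (adjusted p = 0.0593).

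Counts over all genes moved by over 1.5 times in these cases. For memory day 40 against day 7, 563 became 199 with only the compared groups, 291 without the arrays with the fewest floor values, 366 with the stricter filter, 908 with array weights and 1141 with no minimum change. The interaction's 555 became 354, 975 and 342 with the stricter filter, array weights and those arrays left out. For germinal center day 40 against day 7, 666 became 429 with the stricter filter, 1008 with no minimum change and 425 with only the compared groups. For marginal zone against follicular cells, 1237 became 805 with the stricter filter and 1956 with no minimum change. No minimum change also gave 3686 for memory day 7 (2063 with it), 2617 for memory day 40 (1544), 5682 for germinal center day 7 (3480) and 5796 for day 40 (3639) against follicular cells, and 4672 at day 7 (2660) and 5298 at day 40 (3132) for germinal center against memory.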
